A study of Mus musculus with 6 samples.

Results

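Heat shock chaperones are the proteins that fold, refold or hand over other proteins in the cytosol and in mitochondria, and 36 of their genes and of the genes of their helper proteins were followed in Clcn5 knockout and wild type proximal tubules of the mouse kidney. A gene was measured by a probe set (a group of short probes for 1 transcript) annotated with its symbol and no other, and where a gene had several, by the one with the highest mean log2 signal over all 6 arrays. By this rule 33 of the 36 genes were measured, out of 18193 genes on the array, while Hsp90ab1, Hsf1 and Ptges3 were not analysed here. All 33 also passed a filter on dim probe sets, which keeps a mean signal of at least 41.9 and left 11620 genes in the test. The 33 genes have 81 probe sets in all, and 23 genes have more than 1.

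The study compared 3 arrays of Clcn5 knockout tubules with 3 arrays of wild type tubules, both untreated as far as the labels say. Clcn5 encodes a chloride and proton exchanger of proximal tubule endosomes, which is lost in Dent disease. Per the series' design text, the left kidney was perfused with cold salt solution under halothane, about 80 to 100 pieces of tubule, 2 mm long, were dissected by hand from each kidney, and RNA of 3 to 4 mice was combined for an array. The arrays' run records give 7 mice for each pool and number the pools as biological replicates, so p-values here measure the spread between 3 pools in each group. How the Clcn5 allele was disrupted, the strain and the ages are not given in the sources used here.

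The main chaperone of the cytosol is the HSP70 machine: J proteins bring unfolded chains to HSP70 and start its ATP cycle, and HSP110 proteins, BAG proteins and other exchange factors let the chain go. HSP90 takes over signalling proteins from HSP70 through Stip1 and other co-chaperones, small heat shock proteins hold unfolding proteins without ATP, and the HSP60 ring of Hspd1 with its lid Hspe1 folds proteins inside mitochondria. Under heat, damage to proteins or other stress, heat shock factor 1 binds GAA repeats of alternating orientation (GAA, then its reverse complement TTC) near the start of its target genes. Some chaperones are made in all cells at all times, others are made chiefly when this factor is active. The proximal tubule takes up filtered protein by endocytosis and depends on many mitochondria.

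The bases before the start of the genes that the results turn on are shown first, with the heat shock repeats in capitals. The sequences are those of RefSeq, assembly GRCm38.p6, 5′ to 3′ on the strand of the gene, and the deposited files name no genome build. The 250 bases before the start of Hspb1 and Stub1, which both rose in the knockout, and of the near-identical pair Hspa1a and Hspa1b hold 1 or 2 copies of the pair of repeats GAANNTTC or TTCNNGAA.
Hspb1, chr5:135887669-135887918, plus strand: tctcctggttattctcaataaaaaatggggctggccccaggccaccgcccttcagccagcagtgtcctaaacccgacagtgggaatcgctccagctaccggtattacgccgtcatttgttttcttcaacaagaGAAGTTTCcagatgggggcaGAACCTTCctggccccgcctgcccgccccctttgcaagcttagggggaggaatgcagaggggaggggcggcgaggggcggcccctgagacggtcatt
Stub1, chr17:25832920-25833169, minus strand: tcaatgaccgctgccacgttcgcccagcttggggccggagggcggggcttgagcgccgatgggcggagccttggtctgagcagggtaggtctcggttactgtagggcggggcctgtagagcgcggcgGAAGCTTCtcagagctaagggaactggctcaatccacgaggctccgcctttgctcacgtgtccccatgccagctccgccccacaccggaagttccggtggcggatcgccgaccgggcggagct
Hspa1a, chr17:34972157-34972406, minus strand: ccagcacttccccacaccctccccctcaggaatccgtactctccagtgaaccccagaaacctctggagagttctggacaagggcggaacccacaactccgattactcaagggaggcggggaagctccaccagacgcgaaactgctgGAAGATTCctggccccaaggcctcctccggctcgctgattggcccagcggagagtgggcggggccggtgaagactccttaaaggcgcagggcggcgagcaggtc
Hspa1b, chr17:34959239-34959488, minus strand: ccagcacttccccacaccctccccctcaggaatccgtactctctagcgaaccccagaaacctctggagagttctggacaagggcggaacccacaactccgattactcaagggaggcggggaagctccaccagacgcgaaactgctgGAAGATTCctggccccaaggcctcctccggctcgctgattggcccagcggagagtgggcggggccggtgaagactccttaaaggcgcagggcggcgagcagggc
The Hspa1a and Hspa1b stretches were identical at 247 of 250 positions. The 3-repeat form, GAANNTTC followed by any 2 bases and GAA, which overlaps both shorter forms, is shown in its surroundings for 4 genes that did not pass the test.
Hspe1, chr1:55088053-55088082, plus strand: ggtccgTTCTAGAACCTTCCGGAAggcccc
Chordc1, chr9:18292260-18292288, plus strand: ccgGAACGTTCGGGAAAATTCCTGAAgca
Dnajb6, chr5:29735844-29735872, plus strand: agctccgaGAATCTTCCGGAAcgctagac
Hsph1, chr5:149636287-149636308, minus strand: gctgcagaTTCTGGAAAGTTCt

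With the start base as 0, the first capital letters of the repeats lie at -117 and -97 for Hspb1, -123 for Stub1, -104 for both Hspa1a and Hspa1b, -46 for Dnajb6, -4, 1 and 6 for Chordc1, and 36 for Hsph1. Dnajb6 and Hsph1 also have another start, from which the same match lies at -127 for Dnajb6 and 15 for Hsph1. The repeats of Hspe1 lie at -89 and -84 from its own start. The same bases lie before Hspd1, which is read in the other direction. Windows of 300 bases (250 before to 50 after the start) were at hand for 29 of the 36 genes and not for Cryab, Hsp90aa1, Hsp90ab1, Hspa8, Hspa9, Hsf1 and St13. The 3-repeat form, searched on both strands, was in 5 of the 29 genes (17.2%) and in 0.662% of 27025 genes. Either 2-repeat form was in 15 of the 29 (51.7%) against 17.0% of all genes. It was in 8 of 11 inducible and in 7 of 17 constitutive genes. A match is a run of letters and no measured binding site. The 5 genes with the 3-repeat form were Chordc1, Dnajb6, Hspd1, Hspe1 and Hsph1.

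The arrays were scaled alike, with a median signal of 40.9 to 48.8. Clcn5 itself read 352, 322 and 269 on the knockout arrays and 1013, 709 and 1029 on the wild type arrays. All 3 knockout arrays thus lay below all wild type arrays. The Clcn5 probe set is of a type whose probes may also bind other transcripts. Markers of the first proximal segments gave summed signals of 47995 to 53017 in the knockout and 47281 to 54164 in the wild type. Markers of the labelled tissue were thus bright on every array. Markers of later segments were bright as well: Umod of the thick ascending limb averaged 5155 in the knockout and 3875 in the wild type. Calb1 of the distal and connecting tubule averaged 5300 in the knockout and 3917 in the wild type. The purity of the dissected tubules was not tested. The arrays were washed on 2 fluidics stations, knockout replicate 3 and wild type replicate 2 on station 2 and the other 4 on station 1, and knockout replicate 3 alone was run with another solution lot.

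Of the 33 chaperone genes, 3 rose in the knockout and none fell. These were Cryab and Hspb1, both small heat shock proteins, and Stub1, the ubiquitin ligase that binds HSP70 and HSP90. The test was limma on log2 signals, with Benjamini-Hochberg adjusted p-values over 11620 genes at 0.05. The 3 genes are 9.09% of 33, where 3.24% of all genes tested rose and 3.24% fell (6.48% in either direction). At an unadjusted p under 0.05, 7 of the 33 were higher and 2 lower, against 10.3% and 9.08% of all genes. In 9 of 33 genes (27.3%) the knockout and wild type arrays did not overlap, and 25.2% of all genes did the same. Leaving out 1 array at a time gave 0 to 2 genes that rose, with none without wild type replicate 2. Within station 1 alone (2 against 2 arrays) none of the 33 passed. There 6 of the 33 had an unadjusted p under 0.05 in limma, against 1876 of all 11620 genes. By the measure of overlap the chaperones as a whole were close to the background, and the median change of the 33 genes was 0.03 on the log2 scale against 0.01 for all genes tested.

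**Figure D1:**
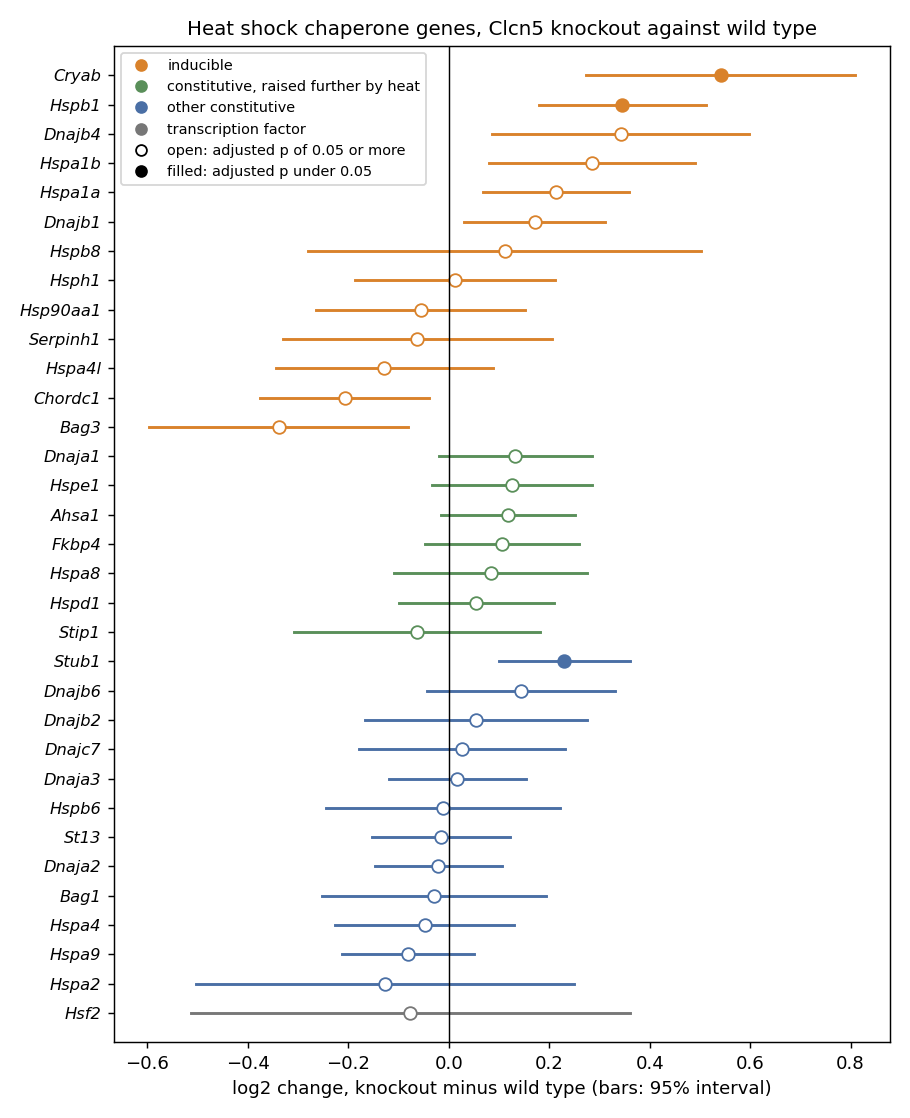
Log2 change (knockout minus wild type, x axis) of the 33 measured chaperone genes, with 95% intervals from limma on 3 and 3 arrays; colour gives the class and filled points have an adjusted p under 0.05. Cryab at 0.54, Hspb1 at 0.35 and Stub1 at 0.23 are the filled points, and the inducible genes spread from -0.34 to 0.54 while the constitutive genes lie between -0.13 and 0.23.

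The small heat shock proteins held 2 of the 3 genes that rose. Cryab encodes alpha B-crystallin, a chaperone first known from the lens and also made in muscle and kidney. Its signal was 164, 176 and 162 on the knockout arrays and 129, 104 and 113 on the wild type arrays. All knockout arrays were above all wild type arrays, at 167 ± 7.76 against 115 ± 13.0 (mean and SD, n = 3 and 3). This was 1.46-fold higher, a log2 change of 0.54 (SE 0.12, 95% interval 0.27 to 0.81, limma adjusted p = 0.0220). The gene was among the dimmer chaperones. Within station 1 the change was 0.49 and between the 2 arrays of station 2 it was 0.65. The call was lost when knockout replicate 2 (adjusted p = 0.0828), wild type replicate 2 (0.0961) or wild type replicate 3 (0.0750) was left out, and when the gene's probe sets were averaged (0.118).

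Hspb1 encodes HSP27 (in the mouse also HSP25), which guards actin filaments and holds damaged proteins. It read 889, 873 and 942 in the knockout and 644, 725 and 762 in the wild type. Every knockout array was above every wild type array, with means of 901 ± 35.9 and 710 ± 60.1 (SD, n = 3 and 3). The change was 1.27-fold, 0.35 on the log2 scale (SE 0.07, 95% interval 0.18 to 0.51, limma adjusted p = 0.0182). Its values within station 1 (0.33) and between the arrays of station 2 (0.38) were close to each other. Without knockout replicate 3 the adjusted p was 0.0586, without wild type replicate 1 it was 0.0882 and without wild type replicate 2 it was 0.0537.

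The other small heat shock proteins did not pass the test. Hspb8, the partner of Bag3 in handing proteins to autophagy, read 86.5, 64.0 and 81.2 in the knockout and 75.6, 65.0 and 72.7 in the wild type. Its groups overlapped, with a log2 change of 0.11 (95% interval -0.28 to 0.50). Hspb6, best known from smooth and cardiac muscle, read 153 to 179 in the knockout and 162 to 174 in the wild type, a change of -0.01 (95% interval -0.24 to 0.22). Over the 4 genes of this family the median change was 0.23.

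**Figure D2:**
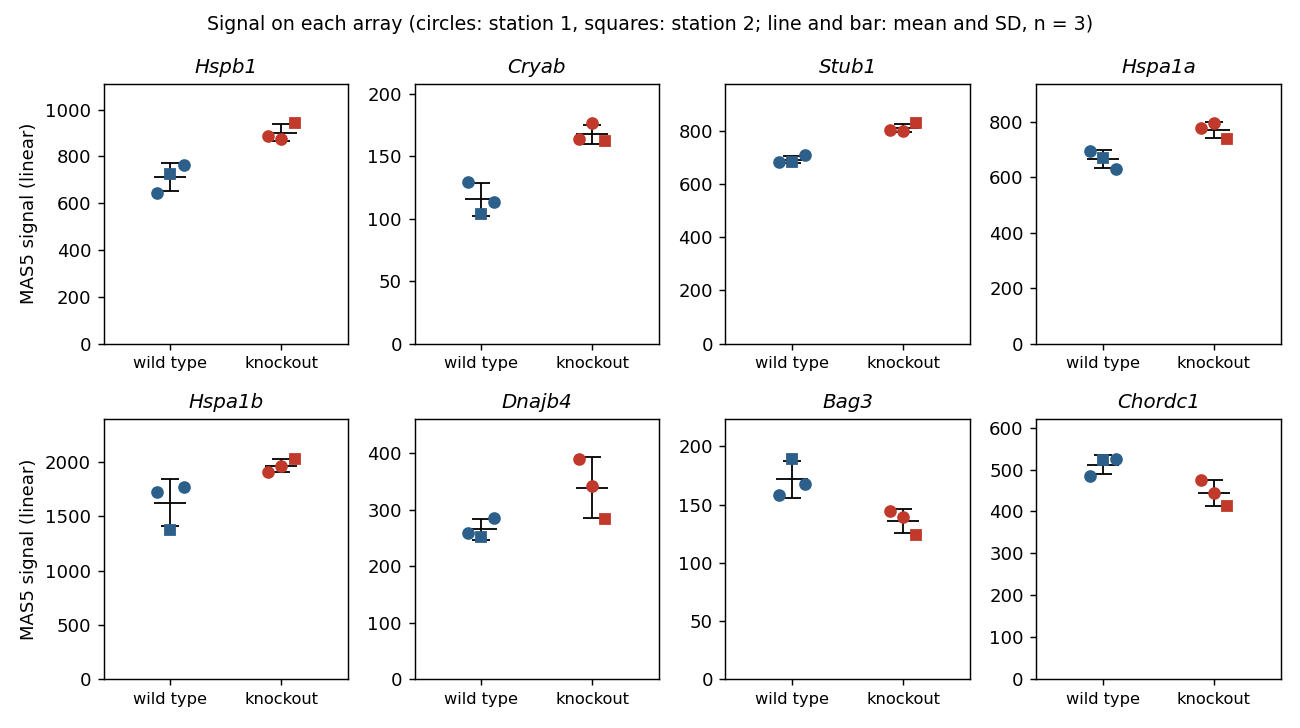
Linear signal on each array (y axis, from 0) for chaperone genes named in the text, wild type beside knockout; circles are station 1, squares station 2, and the line and bar give mean and SD of 3 arrays. For Cryab, Hspb1 and Stub1 every knockout array lies above every wild type array, while for Bag3 and Chordc1 every knockout array lies below.

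Hspa1a and Hspa1b encode the heat-inducible HSP70 and are near-identical copies, so their signals cannot be told apart with certainty and are uncertain as values of single genes. The Hspa1a probe set gave 779, 795 and 737.5 in the knockout and 695, 670.4 and 629.7 in the wild type. The groups did not overlap, and the log2 change was 0.21 (SE 0.07, 95% interval 0.07 to 0.36), but the limma adjusted p of 0.0937 missed the threshold. The Hspa1b probe set, of a type whose probes may also bind other transcripts, gave 1909.7, 1960.4 and 2031 in the knockout and 1726.5, 1374 and 1771 in the wild type. These too did not overlap, at 0.29 (SE 0.09, 95% interval 0.08 to 0.49, limma adjusted p = 0.110). The size rested in part on wild type replicate 2, the lowest array: the Hspa1b change was 0.15 within station 1 and 0.56 between the arrays of station 2. Both other Hspa1b probe sets gave smaller changes of 0.15 and 0.16.

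None of the 3 constitutive HSP70 genes passed the test. Hspa8, the HSC70 protein that uncoats clathrin vesicles and serves most folding in resting cells, had a knockout signal of 6898 to 7349.6 and a wild type signal of 6041.5 to 7458. The groups overlapped, with a change of 0.08 (95% interval -0.11 to 0.27). Hspa9, mortalin, which pulls proteins into mitochondria, read 1766 to 1891 against 1871 to 1960.0, a change of -0.08 (95% interval -0.21 to 0.05). Its 3 other probe sets that passed the filter were also below 0, from -0.16 to -0.11. Hspa2, the HSP70 of developing sperm, was dim at 58.8 to 71.4 against 66.3 to 74.5 (-0.13, 95% interval -0.50 to 0.25).

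The HSP110 proteins exchange the nucleotide of HSP70. Hsph1, the heat-inducible member, read 1051, 968 and 864 in the knockout and 1017, 852 and 989 in the wild type, a change of 0.01 (95% interval -0.19 to 0.21) with overlapping groups. Hspa4 changed by -0.05 (95% interval -0.23 to 0.13) and Hspa4l by -0.13 (95% interval -0.34 to 0.09). None of the 3 passed the test.

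Among the J proteins, 7 of 8 had a change above 0 and none passed the test. At an unadjusted p under 0.05 in limma 2 of the 8 were higher. Of all genes tested, 51.7% had a change above 0 and 10.3% were higher at that p. Dnajb1, HSP40, the main partner of inducible HSP70, read 621, 594 and 578 in the knockout and 527, 523 and 542.0 in the wild type. The groups did not overlap, at 0.17 (SE 0.06, 95% interval 0.03 to 0.31, limma adjusted p = 0.161). Dnajb4, a close relative, read 391, 343 and 283 against 259.6, 251 and 286, so knockout replicate 3 lay among the wild type arrays. Its change was 0.34 (SE 0.12, 95% interval 0.09 to 0.60, limma adjusted p = 0.127). Without knockout replicate 3 the Dnajb4 change was 0.47 and passed the test (adjusted p = 0.0213), as it did with arrays weighted by their quality (0.0472). Both other Dnajb4 probe sets, which are dim, gave -0.19 and 0.48 and did not share a direction.

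The remaining J proteins had overlapping groups. Dnaja1, which folds with HSC70 in the cytosol, changed by 0.13 (95% interval -0.02 to 0.28), and Dnajb6, which keeps aggregation-prone proteins soluble, by 0.14 (95% interval -0.04 to 0.33). Dnaja2 (-0.02), the mitochondrial Dnaja3 (0.02), Dnajb2 (0.05) and Dnajc7 (0.03) lay near 0. The arrays of Dnaja3 lay close together, at 763 to 773 in the knockout and 720.3 to 781 in the wild type.

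In the HSP90 branch no measured gene passed the test in limma, and Chordc1 alone had an unadjusted p under 0.05. Hsp90aa1, the inducible HSP90 alpha, read 3011, 3313 and 2499.6 in the knockout and 2997.5, 3039 and 3077 in the wild type, and knockout replicate 3 was the lowest of the 6. The change was -0.06 (95% interval -0.26 to 0.15). Ahsa1, which drives the ATPase of HSP90, read 1133, 1057.5 and 1064 in the knockout and 1010.1, 970.5 and 1017 in the wild type. Its groups did not overlap, but the change of 0.12 (95% interval -0.02 to 0.25, limma adjusted p = 0.325) missed the threshold. Fkbp4, a prolyl isomerase of steroid receptor complexes, changed by 0.11 (95% interval -0.05 to 0.26). Stip1, which hands chains from HSP70 to HSP90, changed by -0.06 (95% interval -0.31 to 0.18).

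Chordc1, a stress-induced HSP90 partner, did not pass the test. It read 474, 444 and 412 in the knockout and 485, 524 and 526 in the wild type. All knockout arrays were below all wild type arrays, by a narrow gap in the case of knockout replicate 1 and wild type replicate 1. The log2 change was -0.21 (SE 0.08, 95% interval -0.37 to -0.04, limma adjusted p = 0.155).

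Neither gene of the mitochondrial chaperonin passed the test. Hspd1, HSP60, read 4197 to 4244 in the knockout and 3835 to 4391.5 in the wild type, a change of 0.06 (95% interval -0.10 to 0.21). Its lid Hspe1, HSP10, read 2948 to 3308 against 2781 to 3080.3, a change of 0.13 (95% interval -0.03 to 0.28). The 2 genes share the stretch between them that is printed above for Hspe1. With Hspa9 and Dnaja3 they make up the 4 mitochondrial chaperones measured, and none of the 4 passed the test.

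Among the proteins that end the HSP70 cycle, Stub1 rose. Stub1 encodes CHIP, which marks proteins held by HSP70 or HSP90 for destruction. It read 803, 799 and 827 in the knockout and 681, 683 and 706.5 in the wild type, with no overlap and little spread in either group (809.7 ± 15.3 against 690.4 ± 14.0, SD, n = 3 and 3). The rise was 1.17-fold, 0.23 on the log2 scale (SE 0.06, 95% interval 0.10 to 0.36, limma adjusted p = 0.0439). The call lay close to the threshold: leaving out any single array gave an adjusted p of 0.0759 to 0.169, and without the filter on dim probe sets it was 0.0601.

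Bag3, an exchange factor that is strongly induced by proteotoxic stress and steers HSP70 clients to autophagy, read 144, 139 and 124 in the knockout and 159, 189.5 and 168 in the wild type. Every knockout array was below every wild type array, at 136 ± 10.6 against 172 ± 15.9 (SD, n = 3 and 3). The log2 change was -0.34 (SE 0.12, 95% interval -0.60 to -0.08), the lowest of the 33 genes, with a limma adjusted p of 0.134 that missed the threshold. It was -0.20 within station 1 and -0.61 between the arrays of station 2. Bag1, a constitutive exchange factor, changed by -0.03 (95% interval -0.25 to 0.19), with knockout replicate 3 lowest at 975.5. St13, which steadies the bound state of HSC70, changed by -0.02 (95% interval -0.15 to 0.12).

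Serpinh1, HSP47, is the collagen chaperone and the only one of the 33 working in the endoplasmic reticulum. It read 685, 532.5 and 470.1 in the knockout and 607.5, 600.3 and 536 in the wild type, a change of -0.06 (95% interval -0.33 to 0.20). This probe set is of the type whose probes may also bind other transcripts. The gene's other probe set read 562, 542 and 504 in the knockout and 466, 480 and 453 in the wild type. There every knockout array was higher, at 0.20 (limma adjusted p = 0.183), so the direction for this gene is uncertain. Hsf2, the one heat shock factor measured, was dim at 49.3 to 66.5 in the knockout and 54.8 to 67.5 in the wild type (-0.08, 95% interval -0.51 to 0.36).

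Inducible and constitutive chaperones were then set side by side. The class of each gene was assigned here from general knowledge, with earlier results of these data known. In the 13 inducible genes, 2 rose, none fell, 8 changes were above 0 and 5 below, and the median change was 0.11. In the 19 constitutive genes, 1 rose, none fell, 11 were above 0 and 8 below, and the median was 0.03. In all genes tested the median was 0.01, with 3.24% called higher and 51.7% above 0, and the counts above 0 in both classes were near that share. The medians of the classes differed by 0.08, which is a description of these genes and no test.

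The inducible genes also spread more. Their changes ran from -0.34 (Bag3) to 0.54 (Cryab) with an SD of 0.25, and the constitutive genes ran from -0.13 (Hspa2) to 0.23 (Stub1) with an SD of 0.09. The SD over all genes tested was 0.29. A change beyond 0.2 in either direction was found in 7 of the 13 inducible genes (5 higher, 2 lower) and in 1 of the 19 constitutive genes, against 32.0% of all genes (16.3% higher). Knockout and wild type arrays did not overlap in 7 inducible genes and in 2 constitutive genes, Stub1 and Ahsa1, against 25.2% of all genes. Hspa1a and Hspa1b, whose signals cannot be told apart with certainty, count as 2 genes in both totals of 7. Among the inducible genes Cryab, Hspb1, both Hspa1 genes and Dnajb1 were higher on every knockout array and Bag3 and Chordc1 lower on every knockout array. In the probe sets that represent them, Dnajb4, Hsph1, Hsp90aa1, Serpinh1, Hspb8 and Hspa4l overlapped.

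By array, the median of the inducible genes, each taken against its wild type mean, was 0.23, 0.13 and 0.096 on the 3 knockout arrays and -0.0086, 0.00071 and 0.030 on the wild type arrays. For the constitutive genes it was 0.080, 0.045 and 0.013 on the knockout arrays and -0.019, -0.029 and 0.033 on the wild type arrays. The inducible medians of the knockout arrays were all above those of the wild type arrays, and the constitutive medians overlapped. The difference between the classes was 0.15, 0.081 and 0.083 on the knockout arrays and 0.010, 0.030 and -0.0030 on the wild type arrays. Without knockout replicate 1 the inducible median was 0.02, without knockout replicate 2 it was 0.18 and without wild type replicate 2 it was 0.05. Fitted without knockout replicate 1, the difference fell to 0.01, without knockout replicate 3 to 0.02 and without wild type replicate 2 to 0.04, and within station 1 it was 0.03. The 7 constitutive genes that heat raises further had a median of 0.11, equal to the inducible genes at 2 decimals, and the 12 others a median of -0.01.

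**Figure D3:**
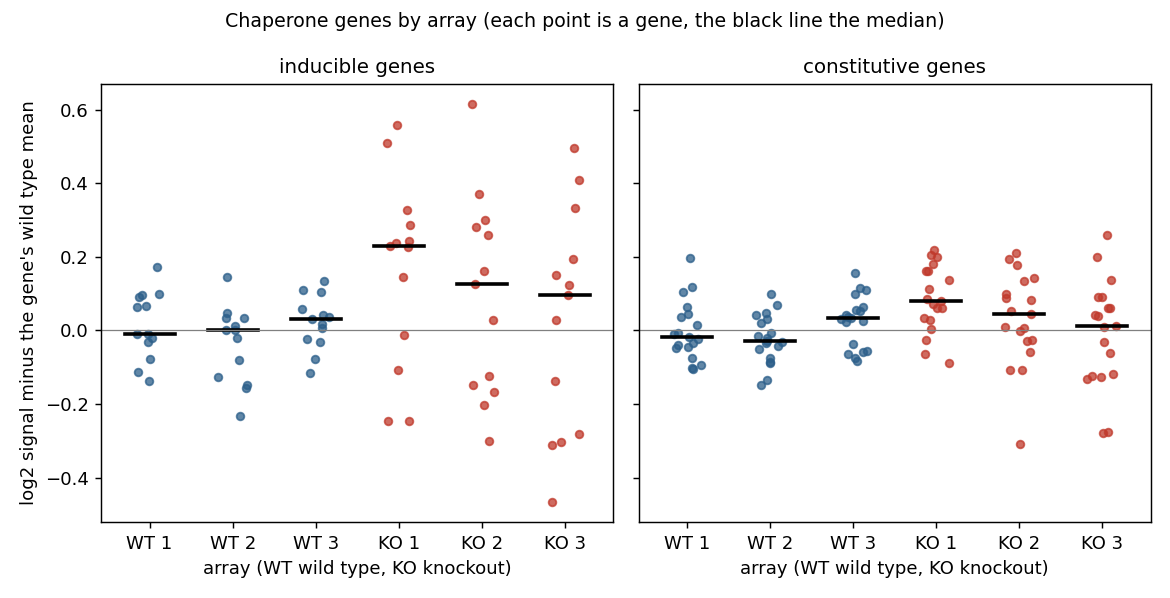
Log2 signal of each gene minus its wild type mean (y axis) on each of the 6 arrays (x axis), inducible genes in one panel and constitutive genes in the other; points are genes and the black line is the median. The inducible medians are 0.23, 0.13 and 0.096 on the knockout arrays, above the wild type arrays, which centre on 0 by construction.

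The other probe sets of the same genes bear on how far a value is the gene's and how far the probe set's. Of 38 further probe sets bright enough to pass the filter, over 22 of the genes, 25 shared the direction of the probe set that represents the gene. The genes that rose were among these: Hspb1 had 0.38 in its second probe set, Cryab 0.27 and Stub1 0.22, against 0.35, 0.54 and 0.23 in the first. The second probe sets of Hspb1 and Stub1 are of the type whose probes may also bind other transcripts. When the second-brightest probe set represented each gene that has one, none of the 33 passed the test in limma. An unadjusted p under 0.05 was found for 6 of them, against 1984 of all 11620 genes. The limma adjusted p was 0.103 for Hspb1, 0.524 for Cryab and 0.398 for Stub1. The second Cryab probe set was dim, at 62.1 to 72.2 in the knockout and 51.6 to 65.4 in the wild type, and overlapped between groups. That of Stub1 also overlapped, at 204 to 222 in the knockout and 157 to 214 in the wild type. Bag3, Chordc1 and Hspa1a have no further probe set that passed the filter. Directions split in several genes, among them Dnajb4, Hsp90aa1, Serpinh1, Fkbp4 and Hspe1, where at least 1 other probe set had the opposite sign.

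**Figure D4:**
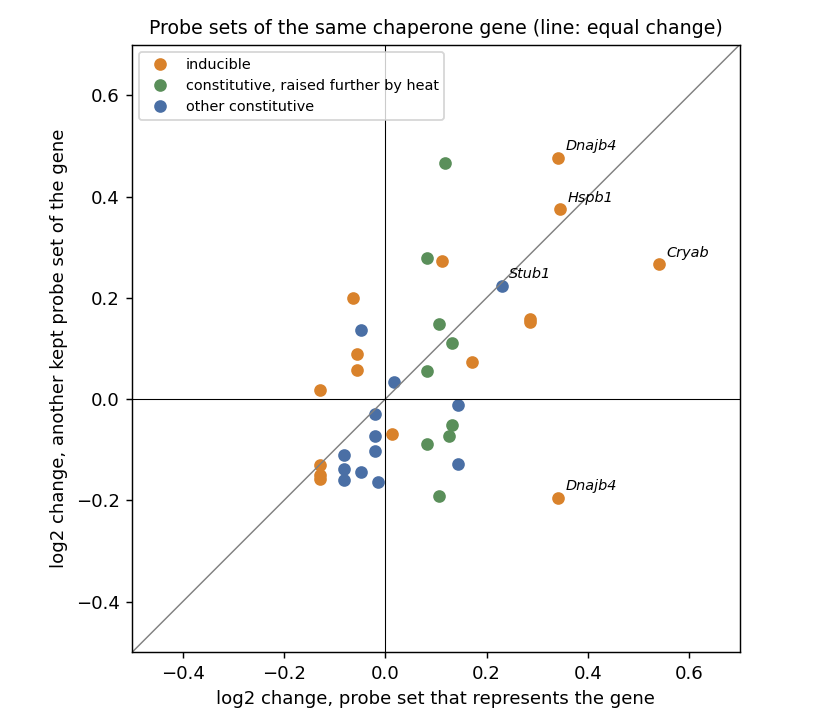
Log2 change of the probe set that represents a gene (x axis) against that of each other probe set of the gene that passed the filter (y axis), with a line of equal change. Of the 38 points 25 have the same sign on both axes, and those of Hspb1 (0.35 and 0.38) and Stub1 (0.23 and 0.22) lie close to the line.

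Genes beside these chaperones gave few calls, apart from 1 co-chaperone and the endoplasmic reticulum. None of 14 genes of the cytosolic chaperonin TRiC and its partner prefoldin rose or fell, with a median of 0.02 and 1 gene at an unadjusted p under 0.05 in limma. Of 49 other chaperones and co-chaperones, 1 rose and none fell. This was Cdc37l1, a relative of the HSP90 kinase adaptor Cdc37, which read 1141, 1180.0 and 1208 in the knockout and 696, 633 and 630.4 in the wild type. It was 1.80-fold higher with no overlap (log2 change 0.85, SE 0.06, limma adjusted p = 2.58e-05) and stayed past the threshold with each array left out and in 10 of 11 other settings. With its second-brightest probe set the adjusted p was 0.105, and its 5 other probe sets that passed the filter were higher by 0.20 to 0.65. Of 17 folding genes of the endoplasmic reticulum, 3 fell and none rose. They were Dnajb11 (-0.36, limma adjusted p = 0.00521), the J protein that works with BiP, Dnajb9 (-0.40, limma adjusted p = 0.0158), which restrains the stress sensor IRE1, and Manf (-0.27, limma adjusted p = 0.0427), a factor made under stress of that organelle. Dnajb11 held with each array left out, Dnajb9 in 2 of the 6 such fits and Manf in none.

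Some genes outside the chaperone lists were also higher in the knockout. Of 22 early response genes tested, which are switched on within minutes by many stimuli, 13 rose and none fell, with a median of 0.41. Zfp36, which speeds the decay of messenger RNA, was at 0.86 and Dusp1, a phosphatase of MAP kinases, at 0.47. The summed signal of these genes was 13818 to 14508 in the knockout and 10199 to 10739 in the wild type. Their part in the chaperone values was not tested.

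Markers of other kidney cells also differed between the groups, and in bulk tissue fewer cells of a type and less RNA per cell cannot be told apart. Leukocyte markers rose in 5 of 15 genes tested (none fell), with sums of 5779 to 6235 against 4105 to 4198. Podocyte markers rose in 2 of 8, with sums of 2077 to 2373 against 1818 to 1895, and 2 of the 8 changes were below 0, the lowest at -0.30. Thick ascending limb markers rose in 2 of 7 (sums of 14036 to 15493 against 11895 to 12414), and distal and connecting tubule markers in 4 of 6 (16595 to 17446 against 13997 to 16252). Intercalated cell markers rose in 2 of 6 (2183 to 2309 against 1816 to 1884). Principal cell markers fell in 2 of 8 (3692 to 3895 against 3999 to 4508), namely Aqp3 and Aqp2. Of the 8 principal cell changes 3 were above 0, among them Scnn1g at 0.28, which did not pass the test. These lists had sums that did not overlap between the groups, as did the small list of fibroblast and smooth muscle markers, where none of 7 passed the test (1157 to 1174 against 1033 to 1122). Sums also did not overlap for markers of the last proximal segment, where 1 of 8 rose (14234 to 15869.7 against 12360.1 to 13451). A sum follows its brightest genes, and single markers went the other way. Changes below 0 were 2 of 7 for the thick ascending limb, 1 of 6 for the distal and connecting tubule and 1 of 6 for intercalated cells. They were 2 of 7 for fibroblast and smooth muscle (lowest -0.36) and 2 of 8 for the last proximal segment (lowest -0.45). No leukocyte marker was below 0. Endothelial markers, none of 11 past the test, and first-segment proximal markers, 1 lower of 11, had overlapping sums. The lower proximal gene was Slc6a19 (-0.51, limma adjusted p = 0.000589). No marker was listed at 0 on any array, while Itgam, Col1a1, Pdgfra, Myh11, Cnn1, Lum and Cldn19 were below the filter. The part of these cell types in the values of Cryab, Hspb1 and Stub1 was not tested.

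**Figure D5:**
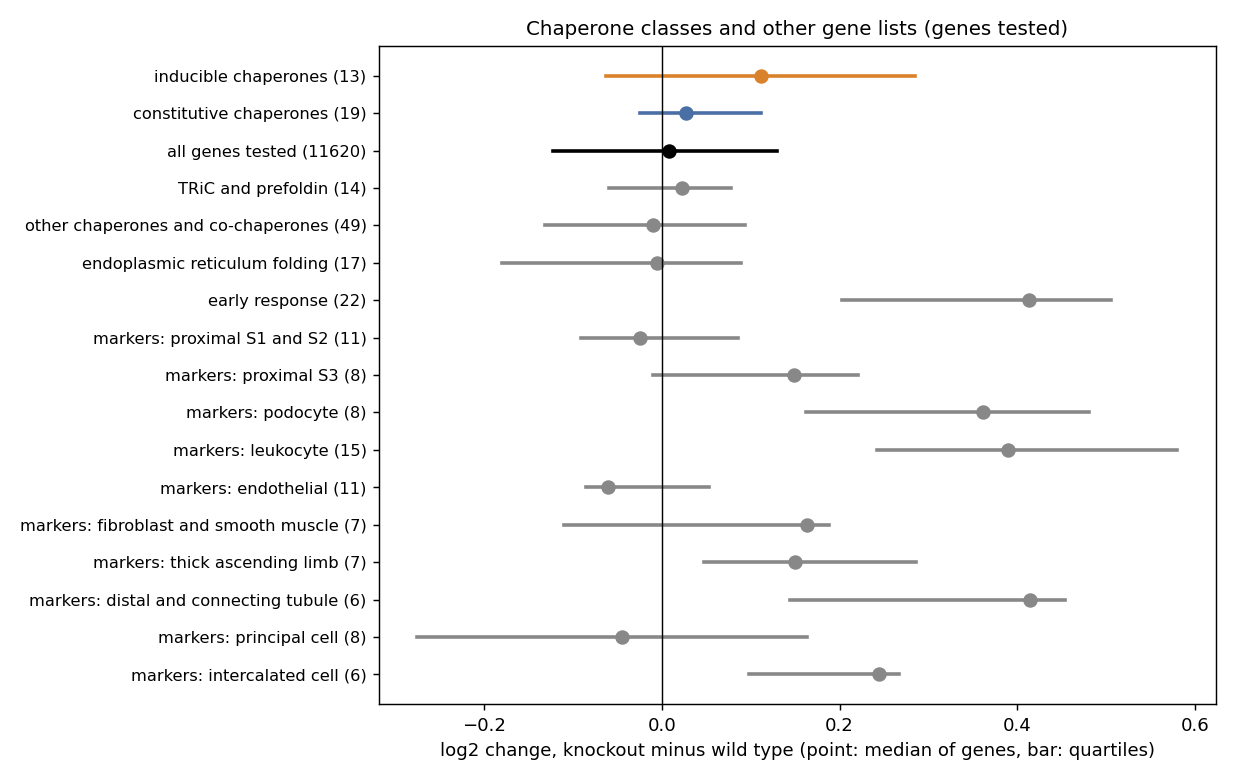
Median log2 change (point) and quartiles (bar) of the 2 chaperone classes, all genes tested and the other gene lists, with the number of genes tested in brackets. The inducible chaperones have a median of 0.11 and the constitutive ones of 0.03, while early response genes are at 0.41 and leukocyte markers at 0.39.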

How the data were processed

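RNA from 3 pools of Clcn5 knockout and 3 pools of wild type proximal tubules was measured on 1-colour mouse arrays after Trizol extraction and 1 round of oligo dT amplification, per the labels' protocols. The authors deposited linear probe set intensities. GCOS 1.4 and MAS5 are the tools named by the submitters' processing notes. Each array had a trimmed mean of 150 (2% left out at the bottom and the top). Detection calls were not used here, and by array 50.7% to 54.6% of probe sets read below 50. The deposited run records were read as other text for station, lot and pool.

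Of 45037 probe sets that are not controls, 34945 carry 1 gene symbol, 932 several and 9160 none in the platform annotation. Signals were all above 0 and were turned to log2 with no pseudocount. The filter kept genes whose mean log2 signal reached the median probe set (a signal of 41.9). Knockout and wild type were compared with limma 3.58.1 in R 4.3.3 (lmFit, eBayes with an intensity trend, two-sided), and the script was tested on simulated data. Fits with an array left out kept the probe sets and the filter of all 6 arrays. Precision is limited by how few arrays there are.

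The members, the gene lists and the classes were chosen with earlier results of these data known, and inducible or constitutive was assigned here from general knowledge. All 36 members were to be named, with up to 5 called genes of each further chaperone list and up to 3 genes of each marker list, by smallest p. Alternatives changed the scale, normalization, filter, probe set, variance model, station, replicate block and arrays used. Promoter windows came from RefSeq (GRCm38.p6).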

Additional observations from a re-analysis of the deposited data

How the results depend on the processing

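The count of 3 chaperone genes higher in the knockout was 3 with 50 added to every signal, with quantile normalization and with a mean signal of at least 100. It was 2 with no filter on dim probe sets and with station as a block, and 4 with array weights and at an adjusted p under 0.10. It was 1 with probe sets averaged and with no intensity trend, and 0 with the second probe set and within station 1, where only 4 arrays were used. With 1 array left out it was 0 to 2, each fit having fewer samples. No setting called a member lower. Hspb1 was called in 8 of 11 other settings, Cryab in 8 and Stub1 in 4, and no call changed direction. The inducible median of 0.11 was 0.023 to 0.18 with 1 array left out. The constitutive median of 0.03 was -0.011 with the second probe set, -0.013 with the genes raised by heat counted as inducible, and 0.0091 to 0.071 with 1 array left out. The difference of medians, 0.08, was 0.044 with 50 added, 0.12 with quantile normalization, 0.052 with a mean signal of at least 100, 0.035 with array weights, 0.028 within station 1, 0.12 with the genes raised by heat counted as inducible, and 0.014 to 0.12 with 1 array left out, so it stayed above 0 under these settings. The cause of these shifts was not tested.

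Of 558 member values under the alternatives, 37 values of 17 genes changed sign, none of them called. With array weights Bag1 was 0.032 and Hspb6 0.0088. With probe sets averaged Hsp90aa1 was 0.030, Hsph1 -0.028 and Serpinh1 0.069. With quantile normalization Hspd1 was -0.0033. With the second probe set Dnajb4 was -0.19, Dnajb6 -0.13, Fkbp4 -0.19, Hsp90aa1 0.058, Hspa4 0.14, Hspe1 -0.072, Hsph1 -0.069 and Serpinh1 0.20. Within station 1 Bag1 was 0.12, Hsf2 0.11, Hsp90aa1 0.057, Hspa4 0.038, Hspb6 0.078 and Serpinh1 0.082. With 1 array left out Bag1 ran from -0.11 to 0.094, Dnaja3 from -0.020 to 0.038, Dnajb2 from -0.022 to 0.15, Dnajc7 from -0.060 to 0.086, Hsf2 from -0.17 to 0.041, Hsp90aa1 from -0.15 to 0.056, Hspa4 from -0.11 to 0.00094, Hspb6 from -0.073 to 0.043, Hsph1 from -0.066 to 0.087, Serpinh1 from -0.21 to 0.057, St13 from -0.053 to 0.0091 and Stip1 from -0.12 to 0.060.

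Same-numbered knockout and wild type arrays did not deviate together (correlations of 0.02, 0.03 and -0.03), so the numbers were not taken to pair the samples. With the replicate block 2 members were called higher, and the adjusted p of Stub1 was 0.0680. With 3 pools a group, small changes were often missed, and not only in dim genes. In simulated data of 3 arrays against 3, over 11620 genes, the test recovered 3.4% of log2 changes of 0.25. It recovered 40.4% of changes of 0.5. A gene that did not pass the test may therefore still have changed by such an amount. The simulation changed fewer genes than were called in the data. Recovery at an adjusted p depends on that share, so both percentages may be too low for these data. For dim genes such as Hspa2 and Hsf2 small changes were not detectable, as their wide intervals show.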
